A study of Mus musculus with 6 samples.

Results

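The genes described here belong to 2 growth factor systems of the nervous system that also act in epithelia, the GDNF family and the neurotrophins. They are the GDNF-family co-receptors Gfra1, Gfra2 and Gfra3, their shared signalling receptor Ret, the ligands Gdnf and Nrtn, the neurotrophin receptors Ngfr and Ntrk2, and the neurotrophins Ntf3 and Bdnf. All 10 had a probe on the array, 12 probes in all, found by matching each probe's RefSeq transcript to the gene symbol, and all 10 were among the 15682 genes tested out of 20887 with a named probe. The list was chosen by gene family with measured differences between the same 6 arrays already known. The differences below therefore describe these genes, and the p-values printed with them say where each gene fell in a fit over all genes rather than testing the choice.

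The study sorted mammary cells of virgin C57/B6 mice of genotype lgr5-egfp-ires-creert2, an allele in which EGFP reports expression of Lgr5, a receptor for R-spondins. The gate was Lin-negative, CD24-positive and CD29-high, which is rich in basal epithelium, and EGFP divided it into Lgr5-positive (GFP+) and Lgr5-negative (GFP-) cells, so both groups carry the same allele and differ in the reporter. Each group had 3 arrays, numbered 1 to 3, on which Cy5-labelled sample RNA was hybridised beside a Cy3-labelled universal mouse reference, a mix of 11 cell lines. The labels give neither the age of the mice nor whether replicates came from separate or pooled animals. With the group alone, p-values therefore rest on the spread between these samples, which may be technical. With the replicate number as a block, they rest on the spread of differences between same-numbered arrays, which may be technical too. The sort fixes Lgr5 only through EGFP, and in bulk RNA of this kind fewer cells of a type and less RNA per cell cannot be told apart.

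GDNF-family ligands bind a GPI-anchored co-receptor on the cell surface, and the pair then engages the receptor tyrosine kinase Ret. Nrtn prefers Gfra2, Gdnf prefers Gfra1, and Gfra3 serves artemin. Neurotrophins bind Trk receptor tyrosine kinases, with Bdnf acting mainly through Ntrk2, and all of them also bind Ngfr, the p75 receptor, which has no kinase of its own and is carried by Schwann cells, follicular dendritic cells and myoepithelial cells, among others.

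Promoters are shown for the members whose Lgr5-positive and Lgr5-negative values lay farthest apart and for which RefSeq's table of GRCm38.p6 held an entry. These are Ngfr and Ntf3, a receptor and a ligand of the neurotrophin system that were both lower in Lgr5-positive cells, and Nrtn, the ligand that was higher. Each line is the 250 bases before an annotated transcript start on the minus strand, 5′ to 3′, and capitals mark the GC box, GGGCGG or its complement CCGCCC, a motif common in promoters without a TATA box. Ngfr lies at chr11:95587699-95587948, Ntf3 at chr6:126166745-126166994 and, for another start, chr6:126164961-126165210, and Nrtn at chr17:56757549-56757798.
Ngfr: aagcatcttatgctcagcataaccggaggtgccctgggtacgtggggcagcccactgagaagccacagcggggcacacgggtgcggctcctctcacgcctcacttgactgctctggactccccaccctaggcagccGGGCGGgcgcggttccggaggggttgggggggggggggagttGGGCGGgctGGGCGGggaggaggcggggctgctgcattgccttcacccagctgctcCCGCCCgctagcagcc
Ntf3, start A: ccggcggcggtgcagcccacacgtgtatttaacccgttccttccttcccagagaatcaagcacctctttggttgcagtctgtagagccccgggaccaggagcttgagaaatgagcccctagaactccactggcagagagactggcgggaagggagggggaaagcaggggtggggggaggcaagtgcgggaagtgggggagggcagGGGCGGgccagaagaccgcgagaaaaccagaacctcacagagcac
Ntf3, start B: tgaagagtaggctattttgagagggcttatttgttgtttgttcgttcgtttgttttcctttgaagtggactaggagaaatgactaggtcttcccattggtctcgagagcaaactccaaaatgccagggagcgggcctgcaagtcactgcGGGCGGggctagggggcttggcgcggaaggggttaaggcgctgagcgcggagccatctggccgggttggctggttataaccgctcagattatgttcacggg
Nrtn: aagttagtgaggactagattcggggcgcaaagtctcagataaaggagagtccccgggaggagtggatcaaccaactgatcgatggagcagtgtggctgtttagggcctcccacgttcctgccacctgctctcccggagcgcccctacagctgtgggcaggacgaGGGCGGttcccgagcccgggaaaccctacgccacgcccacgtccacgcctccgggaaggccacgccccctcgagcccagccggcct

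The Ngfr window held 4 GC boxes and 70.4% G and C, and those of Ntf3 (62.0% and 54.0%) and Nrtn (64.8%) held 1 GC box each. Over all 32851 windows of that length, 32.7% held a GC box on either strand and the median G and C content was 52.4%. The windows of Gfra1, Gdnf and Ntrk2 held no GC box, and of the several windows of Bdnf, not printed, 1 held 2 GC boxes and an AP-1 motif and another held 1 GC box. An E-box, CANNTG, occurred 2 times before Ngfr and 3 times before Nrtn, and in 66.2% of all windows. The AP-1 motif TGANTCA and TATAAA were in none of the printed windows, against 6.75% and 12.4% of all windows. These matches describe letters in a window and were not tied to the measured levels. Gfra2 and Ret are not shown.

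Lgr5 itself checked the labels. In replicates 1 to 3 its log2 ratio of sample to reference was 4.24, 5.36 and 5.01 in Lgr5-positive cells and 2.84, 4.04 and 3.31 in Lgr5-negative cells. The groups did not overlap, and the difference was 1.47, or 2.77-fold (SE 0.40, limma adjusted p = 0.245 with the group alone; SE 0.13, adjusted p = 0.0021 with the replicate number as a block). Deviations from the group means were correlated across genes between same-numbered arrays (0.810, 0.819 and 0.675), so the number was taken to pair the arrays and the blocked values are given throughout. The Lgr5-positive arrays were dimmer, with a median Cy5 signal of 137 to 169 against 200 to 278 and a local background of 64 to 76. The share of probes well above background in Cy5 was 50.9% to 74.4%.

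With the group alone, 0 of the 10 genes passed a Benjamini-Hochberg adjusted p of 0.05 in limma, where 0.612% of all genes passed (0.0255% higher and 0.587% lower), and 3 had an unadjusted p under 0.05, where 8.19% of all genes did. With the replicate block 5 of 10 passed, where 7.73% of all genes did. Gfra2 and Nrtn were the 2 higher in Lgr5-positive cells, where 2.12% of all genes passed in that direction, and Ret, Ngfr and Ntf3 were the 3 lower, where 5.61% did. The groups did not overlap for Gfra2, which was higher, and Ntf3, which was lower. Of all genes, 12.2% did not overlap, 4.06% higher and 8.14% lower. In 6 of the 10 genes all 3 pairs differed in the same direction, as they did in 44.3% of all genes. As the genes were chosen on this contrast, nothing is read from these shares. The median difference over the 10 genes was 0.11, with 7 values above 0, beside 0.01 over all genes tested.

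**Figure D1:**
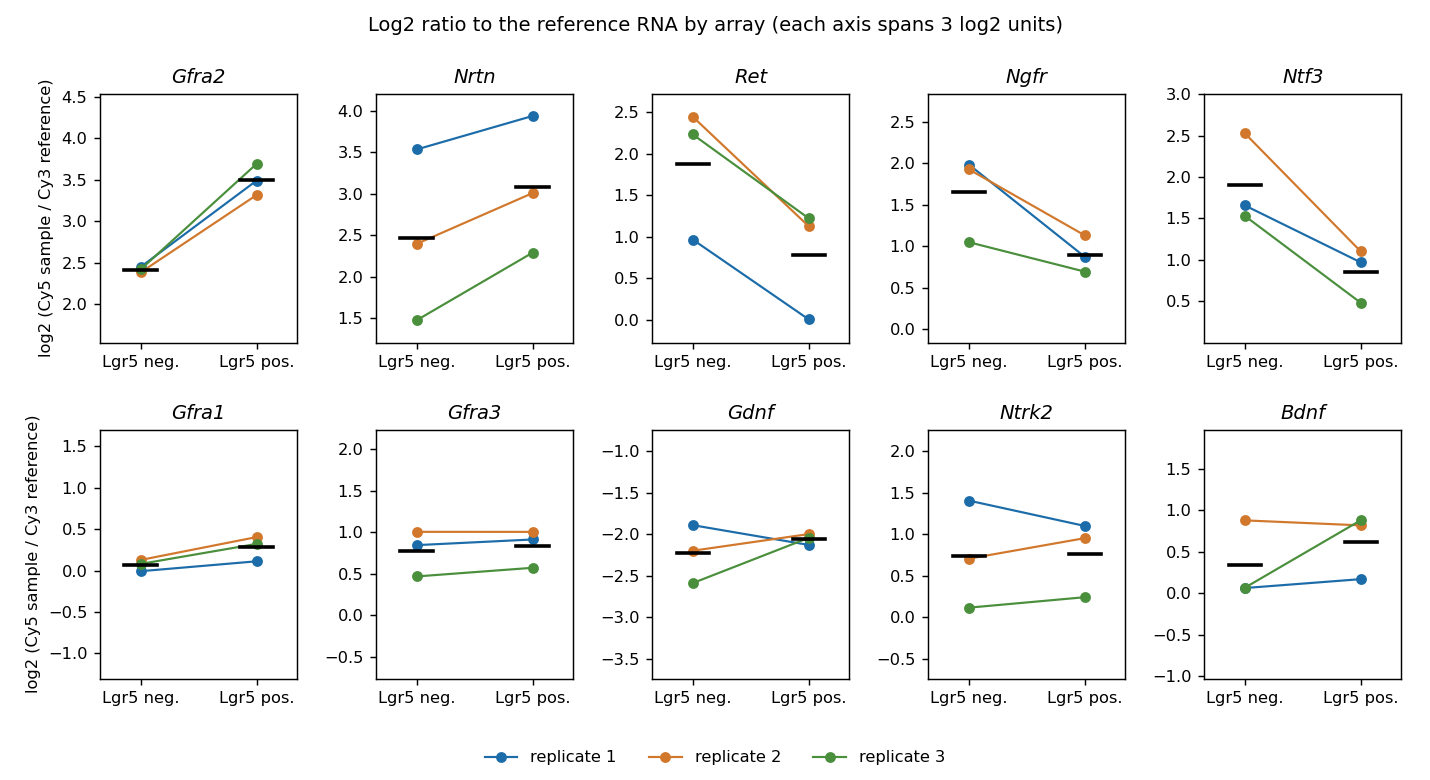
Log2 ratio of sample (Cy5) to reference (Cy3) of each of the 10 genes on each array, with Lgr5-negative arrays on the left and Lgr5-positive arrays on the right of each panel; lines join arrays of the same replicate number, bars are group means (n = 3), and each vertical axis spans 3 log2 units. The lines of Gfra2 and Nrtn all go up, those of Ret, Ngfr and Ntf3 all go down, and the lines of Nrtn run side by side over a spread far wider than the difference.

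Among the GDNF-family co-receptors, Gfra2 stood apart from Gfra1 and Gfra3. Gfra2, the preferred co-receptor of neurturin, had log2 ratios of 3.49, 3.32 and 3.69 in Lgr5-positive and 2.45, 2.38 and 2.42 in Lgr5-negative cells. All 3 Lgr5-positive arrays lay above all 3 Lgr5-negative ones, by a gap larger than the spread in either group. Group means were 3.50 ± 0.19 and 2.42 ± 0.03 (SD, n = 3), a difference of 1.08 or 2.12-fold. Its probe was bright, with Cy5 signals of 5433 to 12627 and 5030 to 8475. The value just missed the threshold with the group alone (SE 0.17, limma adjusted p = 0.0558) and passed with the block (SE 0.13, adjusted p = 0.0048). In the ranking of all genes by difference it stood at the 99.7th percentile.

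Gfra1, the co-receptor of Gdnf itself, had log2 ratios of 0.11, 0.40 and 0.32 against -0.01, 0.13 and 0.08. The Lgr5-positive array was the higher one in each pair, but the groups overlapped and the difference of 0.21 did not pass (limma adjusted p = 0.361 with the block). With the scanner's ratios or the deposited table it was 0.55 (adjusted p at least 0.112). Its Cy5 signal was dim, 150 to 190 and 173 to 265.5, and was well above background on 3 of 3 Lgr5-positive and 2 of 3 Lgr5-negative arrays. Gfra3, the artemin co-receptor, gave 0.91, 1.00 and 0.57 against 0.84, 1.00 and 0.47. Same-numbered arrays were nearly equal, with a difference of 0.06 (adjusted p = 0.832 with the block). Its arrays differed more between replicate numbers, by 0.49 over pair means, than within any pair.

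Ret, the kinase through which all of these co-receptors signal, was lower in Lgr5-positive cells. Its log2 ratio was 0.00, 1.12 and 1.22 in Lgr5-positive and 0.96, 2.45 and 2.23 in Lgr5-negative cells. The pair differences of -0.96, -1.32 and -1.01 were close to one another, while replicate 1 was low in both groups, so the groups overlapped. The difference in log2 ratio was -1.10 (SE 0.49, limma adjusted p = 0.667 with the group alone; SE 0.13, adjusted p = 0.0049 with the block).

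The Ret probe was the dimmest of the 5 that passed. In Cy5 it read 80.5, 144 and 149 for Lgr5-positive and 146, 430 and 393.5 for Lgr5-negative cells, over local backgrounds of 63 to 74. It was well above background on 1 of 3 Lgr5-positive and 2 of 3 Lgr5-negative arrays, and in the Cy3 reference on 0 of 6, so the size of the difference is poorly measured and was -1.92 with the scanner's ratios. The direction is visible in the uncorrected signals of all 3 pairs, on arrays that were dimmer in the Lgr5-positive group as a whole.

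The ligand Nrtn, neurturin, was higher in Lgr5-positive cells by a modest amount that was similar in each pair. Its log2 ratio was 3.94, 3.01 and 2.29 in Lgr5-positive and 3.54, 2.40 and 1.48 in Lgr5-negative cells. Replicate 1 was the highest and replicate 3 the lowest in both groups, over a range of 1.85 in pair means, so the groups overlapped widely. Within pairs the differences were 0.40, 0.61 and 0.81, with a mean of 0.61 or 1.53-fold. It was far from the threshold with the group alone (SE 0.60, limma adjusted p = 1.00) and passed with the block (SE 0.13, adjusted p = 0.0386).

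The direction of Nrtn depends on scaling each array. Before correction its Cy5 brightness was 9667, 8638 and 4187 for Lgr5-positive and 11492, 8958 and 4425 for Lgr5-negative cells, so the Lgr5-positive array was the slightly dimmer one in each pair. It was the higher one after loess normalization, and with median centring in place of loess the difference was 0.16 (adjusted p = 0.335 with the block). Gdnf, the founding ligand of the family, had log2 ratios of -2.13, -2.00 and -2.04 against -1.89, -2.20 and -2.59. It was well below the reference RNA on all 6 arrays, was lower in Lgr5-positive cells in pair 1 and higher in pairs 2 and 3, and did not pass (difference 0.17, adjusted p = 0.631 with the block).

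**Figure D2:**
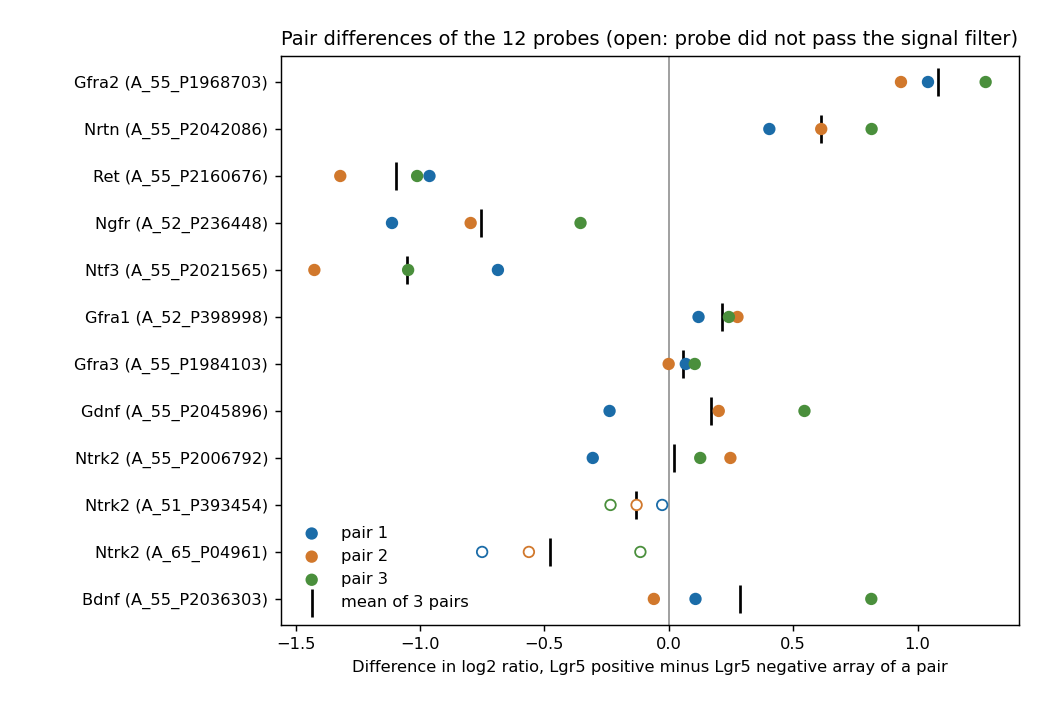
Difference in log2 ratio between the Lgr5-positive and the Lgr5-negative array of each replicate number, for each of the 12 probes; coloured circles are pairs, black bars their mean, and open circles mark 2 Ntrk2 probes that did not pass the signal filter. The pairs of Gfra2 lie between 0.93 and 1.27 and those of Ret between -1.32 and -0.96, whereas the pairs of Gdnf, Bdnf and the brightest Ntrk2 probe fall on both sides of 0.

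On the neurotrophin side the receptor Ngfr was lower in Lgr5-positive cells. Its log2 ratio was 0.87, 1.13 and 0.69 in Lgr5-positive and 1.98, 1.93 and 1.05 in Lgr5-negative cells. The pair differences were -1.11, -0.80 and -0.35, all lower in Lgr5-positive cells, but Lgr5-positive replicate 2 lay just above Lgr5-negative replicate 3, so the groups overlapped. Means were 0.90 ± 0.22 and 1.65 ± 0.52 (SD, n = 3). The difference was -0.75, or 1.69-fold lower (SE 0.29, limma adjusted p = 0.520 with the group alone; SE 0.16, adjusted p = 0.0411 with the block).

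The array carries the Ngfr probe on 10 spots, which gives a measure of technical error within each hybridisation. The SD over spots was 0.07 to 0.22 per array, smaller than each pair's difference. All 10 spots were lower on the Lgr5-positive than on the Lgr5-negative array in each of the 3 pairs, with differences of -1.38 to -0.75 in pair 1, -1.06 to -0.50 in pair 2 and -0.68 to -0.11 in pair 3. Spots of one array share its RNA, so this bears on the precision of each hybridisation and not on the spread between samples. Their mean Cy5 signal was 308, 452 and 393 against 962, 1078 and 928. All spots were well above background, and 1 was set aside as an outlier.

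**Figure D3:**
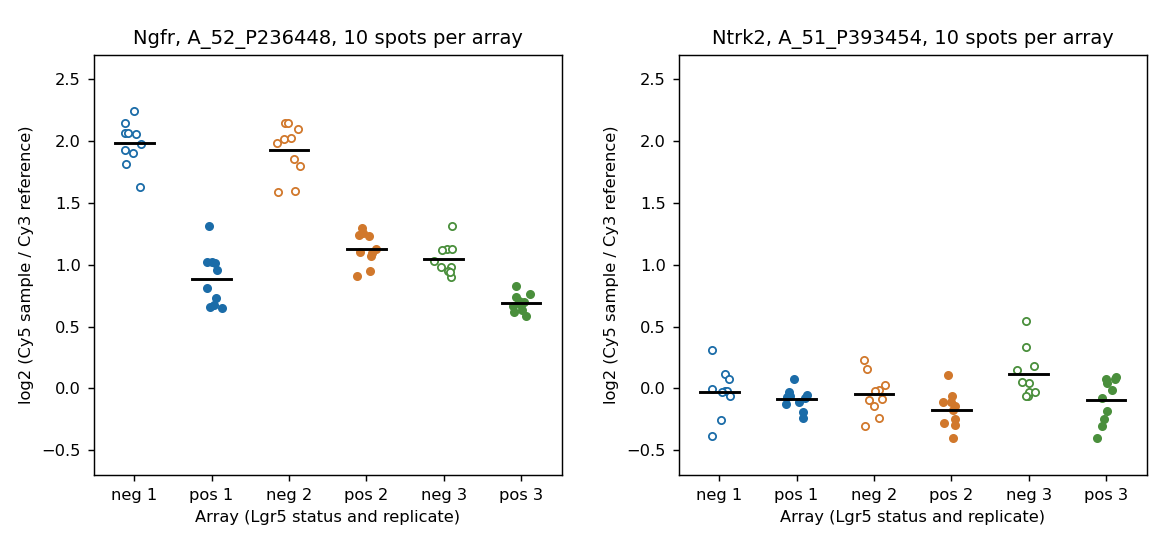
Log2 ratio of sample to reference of each of the 10 spots of the Ngfr probe (left) and of the 10-spot Ntrk2 probe (right) on each array, with open circles for Lgr5-negative and filled circles for Lgr5-positive arrays, colours for replicate numbers and bars for means over all 10 spots. The Ngfr spots of the Lgr5-negative arrays of replicates 1 and 2 lie between 1.59 and 2.24 and those of the same-numbered Lgr5-positive arrays between 0.65 and 1.31, while the Ntrk2 spots lie around 0 on each array.

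Ntrk2, the Bdnf receptor TrkB, had 3 probes, of which 1 passed the signal filter. That probe gave 1.10, 0.95 and 0.24 in Lgr5-positive and 1.40, 0.70 and 0.11 in Lgr5-negative cells. Pair 1 was lower and pairs 2 and 3 were higher in Lgr5-positive cells, and the difference of 0.02 did not pass (limma adjusted p = 0.954 with the block). With median centring it was -0.45 and passed (adjusted p = 0.0432), the only one of the 9 other processings with all arrays in which it did. Under that centring 36.9% of all genes passed, nearly all of them as lower. Counted by the majority of its spots, the 10-spot probe did not rise well above background on any array, with 4 of 10 spots above it on Lgr5-negative replicate 2, and its difference of -0.13 was between values near the background. The remaining probe was well above background on 1 Lgr5-negative array alone, and its difference was -0.48. The 3 probes thus differ in sign, and 2 of them lay below the filter.

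Ntf3, neurotrophin-3, was the neurotrophin whose groups did not overlap. Its log2 ratio was 0.97, 1.10 and 0.48 in Lgr5-positive and 1.66, 2.53 and 1.53 in Lgr5-negative cells. The pair differences were -0.69, -1.42 and -1.05, with a mean of -1.05 or 2.07-fold lower. With the group alone it did not pass (SE 0.32, limma adjusted p = 0.320), and with the block it did (SE 0.16, adjusted p = 0.0128). Its Cy5 signal was 142, 169 and 120 against 311, 558 and 390, so the probe was dim. It was well above background on 2 of 3 Lgr5-positive and 3 of 3 Lgr5-negative arrays, and in the reference channel on 2 of 6.

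Bdnf, the main ligand of TrkB, gave 0.17, 0.82 and 0.88 against 0.06, 0.88 and 0.07. The mean difference of 0.29 came from pair 3, at 0.81, with 0.11 and -0.06 in the others, and did not pass (limma adjusted p = 0.441 with the block). Without replicate 3 it was 0.02.

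The 5 genes that passed with the block differed in how far that rested on the processing. The processings overlap, so the counts below are not counts of separate tests. The deposited table gave the same differences as the scanner's ratios, and changing the signal filter kept those of the main processing. Over the 8 or 9 other processings with all 6 arrays, each fitted with the block, Gfra2 passed in 9 of 9 (differences 0.67 to 1.16, adjusted p 0.0032 to 0.0248) and Ntf3 in 8 of 8 (-1.35 to -0.90, adjusted p 0.0035 to 0.0164). Ngfr passed in 7 of 9 (-0.85 to -0.64), with adjusted p up to 0.113 where the scanner's own ratios or the deposited table were used. Ret passed in 6 of 8, with its difference at -1.92 and its adjusted p at 0.0942 from the scanner's ratios, a change of more than 1.5 times in size. Ret and Ntf3 were not among the genes well above background on all 6 arrays, so that setting gave no value for them. Nrtn passed in 6 of 9 (0.16 to 0.68). Without the pair of replicate 2, Gfra2 was the 1 gene of the 10 that still passed (1.16, adjusted p = 0.0432). There, 2.08% of all genes passed, and the adjusted p was 0.0996 for Ntf3, 0.0574 for Ret, 0.215 for Nrtn and 0.227 for Ngfr, each with its direction kept. Without the pair of replicate 1 Ngfr did not pass (adjusted p = 0.0954), and without that of replicate 3 Nrtn did not (adjusted p = 0.125).

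Scaling moved the whole distribution. Median centring in place of loess moved the median difference over all genes to -0.29, and 97.8% of blocked calls were then lower in Lgr5-positive cells, against 72.6% with loess. Beside that shift, the blocked differences with median centring were 0.67 for Gfra2, -0.98 for Ret, -0.97 for Ntf3 and -0.85 for Ngfr. Gfra3, Gdnf, Bdnf and Ntrk2, which had not passed, changed sign under it, to -0.18, -0.23, -0.18 and -0.45.

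**Figure D4:**
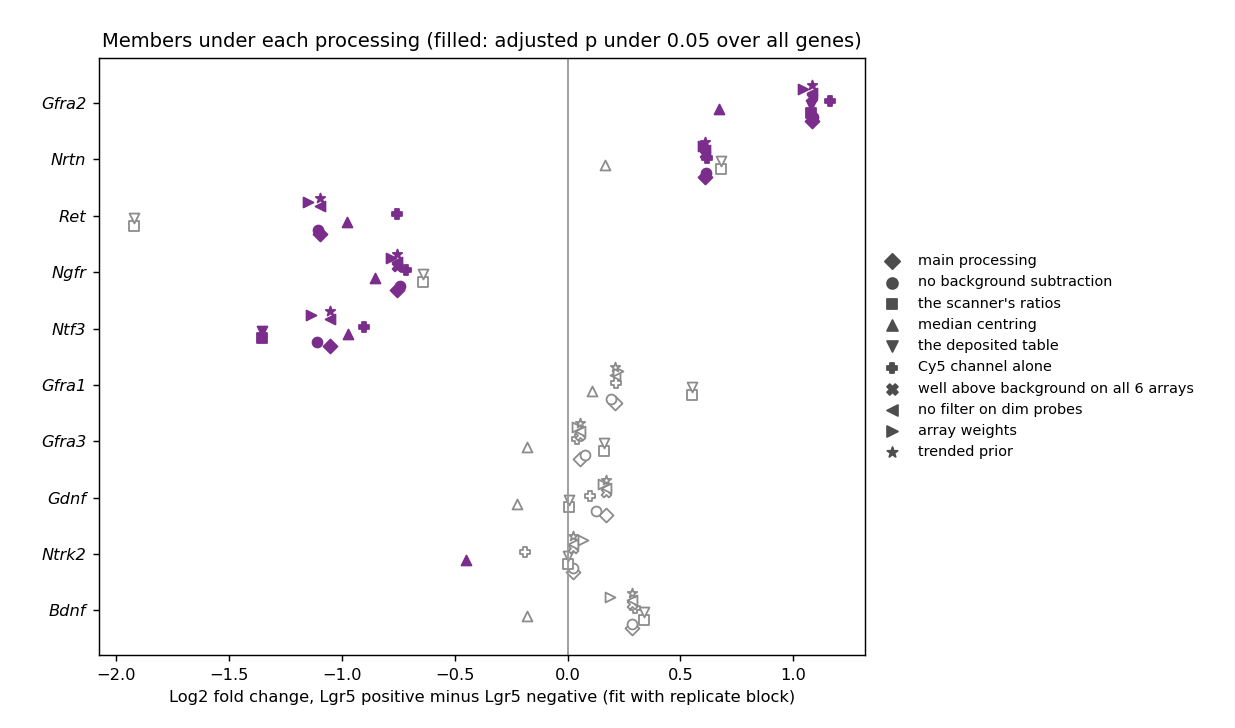
Log2 fold change of each of the 10 genes, Lgr5-positive minus Lgr5-negative, from the fit with the replicate block under the main processing and 9 others; filled symbols have a Benjamini-Hochberg adjusted p under 0.05 over all genes tested. All symbols of Gfra2 and Ntf3 are filled, those of Ret reach -1.92 with open symbols, and the median-centred value of Nrtn, 0.16, lies close to 0.

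Relatives of these genes were read from the same fit, from lists that were drawn up with earlier results known. Of 17 other ligands, receptors and co-receptors of the 2 systems, 14 were tested. With the group alone 0 passed as higher and 1 as lower, where 0.0255% and 0.587% of all genes did. With the block 2 and 1 passed, where 2.12% and 5.61% did. Their median was 0.17, with 13 of 14 values above 0, beside 8155 of 15682 over all genes tested. These values are those of each gene's brightest probe. Other kept probes lay on both sides of 0, such as -0.17 and -0.71 for Sort1 and 0.47 and 0.35 for Gas1. The gene that passed as lower was Gdf15, a stress-induced ligand that signals through Ret and the co-receptor Gfral.

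Gdf15 had log2 ratios of 0.01, 0.53 and 0.00 in Lgr5-positive and 1.78, 1.87 and 2.16 in Lgr5-negative cells. The groups lay far apart, with a difference of -1.76 or 3.38-fold lower (SE 0.22, limma adjusted p = 0.0328 with the group alone; SE 0.17, adjusted p = 0.0026 with the block). With the group alone it did not pass from the scanner's ratios, the deposited table, median centring or Cy5 alone, and with the block it passed in 9 of 9 other processings (-2.23 to -1.65). Gfral and Sorcs3, a sortilin-family receptor, did not rise well above background on any of the 6 arrays.

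Gas1, a GPI-anchored protein related to the Gfra co-receptors, gave 0.88, 0.52 and 0.42 against 0.18, -0.68 and -0.86. It was higher in Lgr5-positive cells without overlap, by 1.06 (limma adjusted p = 0.287 with the group alone and 0.0092 with the block), and its other 2 kept probes gave 0.47 and 0.35. Ntf5, neurotrophin-4, a TrkB ligand like Bdnf, gave 3.31, 2.86 and 2.11 against 2.20, 2.02 and 1.52. It was higher in each pair, by 1.12, 0.84 and 0.59, with overlapping groups (adjusted p = 0.568 and 0.0167). Without the pair of replicate 2 neither passed with the block (adjusted p = 0.0982 for Gas1 and 0.128 for Ntf5).

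Of 30 adaptors and effectors that bind Ret, the Trk receptors or Ngfr, 22 were tested, with a median of 0.07. In limma 0 passed with the group alone and 0 with the block, where 0.612% and 7.73% of all genes did. An unadjusted p under 0.05 was reached by 1 with the group alone and 4 with the block, where 8.19% and 21.3% of all genes were. The lowest p-values with the block were those of Sh2b2, an SH2 adaptor of receptor kinases (-0.75, adjusted p = 0.0729), and Shc2, an adaptor of the Shc family (0.46, adjusted p = 0.124, with another probe at -0.19). Dok5, Dok6 and Ripk2 did not rise well above background anywhere.

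Proteases and inhibitors that cut neurotrophin precursors or Ngfr were 16 in number, with 14 tested and a median of -0.08. In limma 0 passed with the group alone, where 0.612% of all genes did. With the block 0 passed as higher and 2 as lower, where 2.12% and 5.61% did. An unadjusted p under 0.05 was reached by 1 and 5 of the 14, and by 8.19% and 21.3% of all genes. The 2 that passed with the block were Adam10, a cell-surface sheddase, at -1.01 (adjusted p = 0.0170), and Pcsk6, a proprotein convertase, at -0.95 (adjusted p = 0.0348). Without the pair of replicate 2 neither passed (adjusted p = 0.135 and 0.202). Adam10 passed in 9 of 9 other processings and Pcsk6 in 6 of 9, and Pcsk6 did not pass without the pair of replicate 1 either (adjusted p = 0.0569).

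Among 20 feedback regulators and transcripts induced by receptor kinase signalling, 18 were tested, with a median of 0.15. In limma 0 passed with the group alone and 1 with the block, where 0.612% and 7.73% of all genes did. An unadjusted p under 0.05 was reached by 1 and 9 of the 18, and by 8.19% and 21.3% of all genes. The gene that passed was Etv4, a transcription factor induced downstream of Ret and of fibroblast growth factor receptors in development, at 0.69 (limma adjusted p = 0.0221 with the block, and 0.34 for its other probe). It passed in 5 of 9 other processings, and with median centring it was 0.23 (adjusted p = 0.168). It did not pass without the pair of replicate 2 (adjusted p = 0.129) or of replicate 3 (0.0684).

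The 2 groups also differed in markers of other cell types that the sorted gate could hold. Of all genes, 2.12% passed as higher and 5.61% as lower with the block, and 0.0255% and 0.587% with the group alone. Of 12 endothelial markers, 0 passed as higher and 9 as lower with the block (3 lower with the group alone), with a median of -2.10 and a mean log2 ratio over the list of 1.30 to 2.37 on Lgr5-positive and 3.19 to 3.80 on Lgr5-negative arrays. Of 10 markers of follicular dendritic and reticular stroma, 0 were higher and 7 lower (4 with the group alone). Their median was -1.51, and their mean ratios were 0.25 to 0.52 against 1.96 to 2.60. Cxcl13, a chemokine of that stroma, had log2 ratios of 0.96, 2.06 and 0.99 against 5.83, 5.30 and 5.39. Of 9 pericyte markers 4 were lower and 0 higher with the block (0 with the group alone), with a median of -0.58 and mean ratios of -0.09 to 0.01 against 0.48 to 0.62. These lists moved in the direction of Ret, Ngfr and Ntf3, as did the medians of the luminal and fibroblast markers given below. It was also the direction of 72.6% of all blocked calls. The part of any of these lists in the differences of Ret, Ngfr and Ntf3 was not tested.

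Schwann cell markers, of which 12 of 16 were tested, moved both ways, with 2 higher and 2 lower with the block, a median of 0.10, and mean ratios of 0.65 to 1.14 against 0.61 to 1.14. Sox10 (0.91) and Scn7a (0.70) were higher, and Ncmap (-0.66) was among the lower. The myelin marker Gldn did not rise well above background anywhere. Of 8 neuron markers 0 were higher and 1 lower, with a median of 0.02, and Uchl1 did not rise well above background anywhere. Markers of basal epithelium, the main cells of the sorted gate, had a median of 0.45 with 5 of 13 higher and 0 lower with the block, and mean ratios of 3.40 to 3.69 against 3.00 to 3.22. Luminal markers had a median of -0.63 with 0 of 12 higher and 5 lower. Of 11 fibroblast markers 1 was higher and 5 lower (median -0.34), and of 10 leukocyte markers 0 and 1 were (median -0.01), again with the block. With the group alone 0 markers of the pericyte, Schwann cell, neuron, basal, luminal, fibroblast and leukocyte lists passed in limma. An unadjusted p under 0.05 was reached there by 4, 4, 2, 5, 6, 5 and 2 of them, and by 8.19% of all genes. The part of these markers in the difference of any of the 10 genes was not tested.

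**Figure D5:**
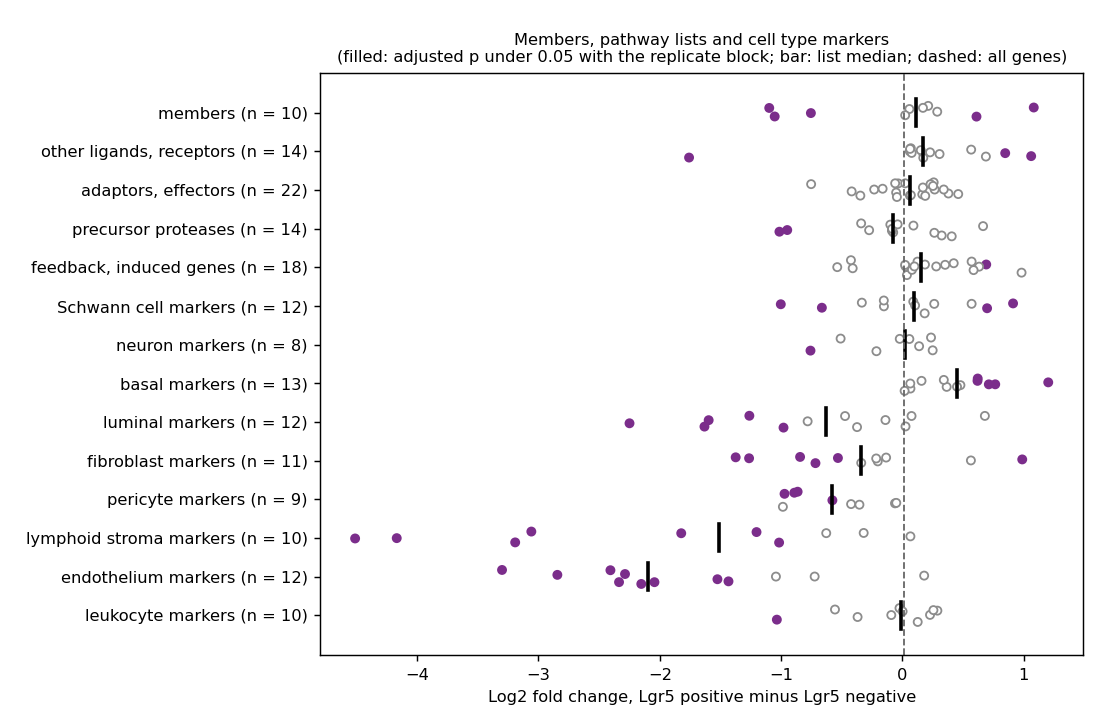
Log2 fold change, Lgr5-positive minus Lgr5-negative, of the 10 genes, their pathway relatives and 9 lists of cell type markers, each circle a gene; filled circles had an adjusted p under 0.05 with the replicate block, bars are list medians and the dashed line is the median of all genes tested, 0.01. The endothelial and lymphoid stroma markers reach far to the left with medians of -2.10 and -1.51, whereas the 10 genes and their relatives spread on both sides of 0.

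Genes with the most similar profile over the 6 arrays were taken by Pearson's r across all genes tested, as a description. For Gfra2 they were Wwp2 (r = 0.991), Slpi (0.986) and Phldb1 (0.985), which differed between the groups by 0.73, 1.95 and 0.77. For Ngfr they were Cidea (0.992), Tubd1 (0.991) and St6galnac2 (0.990), at -0.96, -0.52 and -0.87. For Ret they were Adam3 (0.998), Spry1 (0.996) and Trim16 (0.995), at -0.21, -0.54 and -0.68, and for Ntf3 they were Mrm3 (0.997), Snapc5 (0.994) and Tmem80 (0.990), at -0.21, -0.43 and -0.24. Those of Nrtn, Csnk1g2, Calm3 and Usp30, correlated at 0.998 or more but differed between the groups by 0.13, 0.20 and 0.19, while Nrtn ranged over 1.85 in pair means and differed by 0.61. All points share the same 6 hybridisations, and no test was made of these values.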

How the data were processed

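RNA was measured on 6 Agilent 2-colour arrays on 1 slide, 3 per group. Per the file headers, the deposited scanner files (Feature Extraction 11.0 per the submitters' processing notes, 11.0.1.1 per the headers) hold each spot's median intensity and local background in Cy5 and Cy3, processed intensities and their log10 ratio. A table of log2 ratios was also deposited, which the values show to be centred per probe on the median of the arrays. Between 81.6% and 83.2% of its values lay within 0.001 of the scanner's ratio so centred, every array with the ratio's own sign, and what changed the rest is not given in the sources used here. Its column medians were -0.0016, 0.03 and 0.02 for Lgr5-positive and 0.0064, -0.02 and -0.05 for Lgr5-negative replicates 1 to 3.

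Signals were corrected with normexp (offset 50) and normalized by loess within arrays in limma 3.58.1 under R 4.3.3. Control and outlier-flagged spots had weight 0 and were then dropped, and spots of a probe were averaged. Of the 55681 probes, 27509 were named through RefSeq transcripts of GRCm38.p6 (names alone, as the array is annotated on mm9). Of the 20847 distinct mRNA transcripts given for the probes, 20504 matched. The 34552 probes with Cy5 well above background on at least 3 of 6 arrays were kept, and the brightest stood for its gene. Groups were compared by lmFit and eBayes, two-sided, with Benjamini-Hochberg adjustment over all genes, once by group and once with the replicate number as a block. Differences are Lgr5-positive minus Lgr5-negative on the log2 scale. Arrays with different numbers correlated at -0.67 to -0.16 in their deviations. Deviations sum to 0 within a group, so positive values for same-numbered arrays push these below 0. They are therefore not separate evidence of pairing. The pairing comes from these data and the shared numbers.

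The genes and lists were chosen with earlier results of these data known. All 10 genes are named, with up to 4 genes of each pathway list that passed in either fit, or its 2 lowest p-values where none did, and the 3 genes most like each passing member. The fit was tested on simulated data. The number of arrays limits the precision.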

Additional observations from a re-analysis of the deposited data

How the results depend on the processing

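The count of genes past the threshold over all genes was 96 with the group alone. It was 9 with median centring, 44 for probes well above background on all 6 arrays, 312 with array weights and 1212 with the replicate block. Leaving out each array gave 0 to 371, with 0 without Lgr5-positive replicate 1 or 3 and 371, 5 and 21 without Lgr5-negative replicates 1, 2 and 3, and leaving out each pair with the block gave 1398, 326 and 854 for replicates 1, 2 and 3. Of the other ligands, receptors and co-receptors 1 passed, Gdf15, against 0 with the scanner's ratios, median centring, the deposited table or Cy5 alone and 3 with the block. The range was 0 to 2 without each array, with 2 without Lgr5-negative replicate 1 and 0 without each of the other 4 arrays just named, and 1 to 5 without each pair. With the group alone 0 adaptors, 0 proteases and 0 feedback genes passed in limma (0.612% of all genes), and with the block 0, 2 and 1 did (7.73%). Without each pair these counts were 0 to 1, 0 to 2 and 0 to 1, where 2.08% to 8.91% of all genes passed. Of the 10 genes described, 5 passed with the replicate block (7.73% of all genes). With it, 2 passed with the scanner's ratios (4.71%) or the deposited table (4.84%), 3 of 7 tested for probes well above background on all arrays (8.52%), and 4, 1 and 4 without pairs 1, 2 and 3 (8.91%, 2.08% and 5.45%). These blocked alternatives were chosen after seeing the data. The cause of these changes was not tested, beyond fewer arrays or genes where some were left out. Of 189 single values of the 10 genes under the alternatives, 182 moved by less than the spread between replicates and 7 by more, and of 152 of the named relatives 149 and 3, with 0 reversals of a called value. These shares are partly fixed in advance, as the replicate block and the other signal filters reuse the same ratios. For Nrtn the spread (SD 0.83 in Lgr5-positive and 1.03 in Lgr5-negative cells) was also wider than its difference of 0.61. Dim signals limit the values of Ret, Ntf3 and 2 Ntrk2 probes.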
